A study of Mus musculus with 10 samples.

Results

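The lysosomal genes described here are 47 members in 7 classes: 20 hydrolases, 4 soluble cofactors and lipid transfer proteins, 7 membrane proteins, the transcription factors Tfeb and Tfe3, and 14 subunits of the vacuolar proton pump (v-ATPase). The pump genes comprise 5 of the membrane-embedded V0 sector, 7 of the cytosolic V1 sector and 2 accessory subunits. Members were taken from the tables by gene symbol, from a list of lysosomal genes drawn up with earlier results of these data known, and all 47 had a locus among the 46956 in the tables. All 47 passed the filter on low counts, which left 12500 loci in the test.

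RNA came from tumour-associated macrophages of BALB/cJ mice that carried 4T1 tumours, a mouse mammary carcinoma line, in the mammary fat pad. Mice received vehicle (PBS, 5 samples) or JHU083 (5 samples), a prodrug of the glutamine antagonist 6-diazo-5-oxo-L-norleucine, at 1 mg/kg from day 7 to day 13, with tumours taken on day 14 in both groups. The sort kept live (7AAD-) CD45+ cells with CD11b and F4/80 on their surface and without CD8, Ly6C or Ly6G, so tumour macrophages still positive for Ly6C lay outside it. Samples are numbered in the labels, but nothing there ties a number to 1 animal, and p-values therefore measure the spread between these samples.

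Lysosomes are acidic organelles that degrade proteins, lipids, glycans and nucleic acids taken up from outside or delivered by autophagy, and macrophages depend on them to digest engulfed cells. The v-ATPase pumps protons into the lumen: its V1 sector hydrolyses ATP and its V0 sector carries the protons across the membrane. TFEB and TFE3 are basic helix-loop-helix factors that bind a palindromic E-box, the CLEAR element, in promoters of lysosomal genes, and are held in the cytoplasm when phosphorylated by mTORC1 at the lysosomal surface, so that their activity can change without a change in their own mRNA.

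Libraries held 11147723 to 14575721 fragments in the vehicle group and 13638169 to 15740488 in the JHU083 group. The labelled cell type was borne out by its markers: 9 macrophage genes, among them Adgre1 (F4/80), Csf1r and C1qa, summed to between 13083 and 16788 CPM (counts scaled to library size) in vehicle samples and between 15526 and 19651 in JHU083 samples. Of these 9, 4 were higher with JHU083 (among them Adgre1, Csf1r and Mertk) and none was lower. Markers of tumour epithelium summed to 288 to 622 CPM with vehicle and to 101 to 217 with JHU083, with 9 of 9 tested genes lower. For fibroblasts the sums were 103 to 224 against 25.6 to 113 CPM (5 of 6 tested genes lower), and for endothelium 122 to 209 against 34.4 to 82.4 CPM (1 of 3 tested genes lower, Pecam1). Neutrophil markers summed to 93.0 to 104 against 95.7 to 146 CPM, with Csf3r higher and S100a8 and S100a9 lower among 5 tested. Those of T cells, with Cd4 as their main contributor, summed to 15.9 to 19.6 against 27.96 to 45.1 CPM. Of the 2 T cell genes tested, Cd4 was higher and Lck did not pass, and the Cd3 genes and Cd8a were too low to test. Eosinophil, dendritic, B, NK and mast cell lists each stayed at or below 17.4 CPM in every sample, and no marker of any list was at 0 in all samples. The part of these other cells in the results below was not tested, and in bulk RNA fewer cells of a type and less RNA per cell cannot be told apart.

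Promoter sequences show what the TFE factors are known to bind. Windows from 250 bases before to 50 bases after the RefSeq start site (GRCm38.p6) were at hand for 42 of the 47 members. The 8-base CLEAR core TCACGTGA, a palindrome and so the same on both strands, stood in 5 of the 42 windows (11.9%), against 2.20% of 9460 genes at tested loci and 0.974% of all 32851 windows. Its 6-base centre CACGTG, counted wherever it occurred, inside the longer motif or not, stood in 11 of 42 windows (26.2%), against 11.8% and 7.15%. The 5 stretches with TCACGTGA are printed 5′ to 3′ on the gene's strand with 11 bases on either side and the motif in capitals. Atp6v1a and Mcoln1 were called higher and were printed by the rule for named genes, while the other 3 were added after their values were seen.
Gla, chrX:134601182-134601244, minus strand: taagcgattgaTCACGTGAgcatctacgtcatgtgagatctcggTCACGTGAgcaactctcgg
Atp6v1a, chr16:44139373-44139402, minus strand: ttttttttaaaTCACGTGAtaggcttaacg
Mcoln1, chr8:3500462-3500491, plus strand: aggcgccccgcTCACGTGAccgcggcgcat
Atp6v0d1, chr8:105566050-105566079, minus strand: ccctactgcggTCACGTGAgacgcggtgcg
Atp6v0e, chr17:26676387-26676416, plus strand: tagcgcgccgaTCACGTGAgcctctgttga

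The first base of the motif lay 228 and 195 bases before the start site in Gla, 132 before it in Atp6v1a, 46 before it in Mcoln1, 4 before it in Atp6v0d1 and 2 after it in Atp6v0e. Lamp1 held CACGTG 4 times but not the 8-base motif. Of the 18 members called higher that had a window, 3 held TCACGTGA and 4 held CACGTG, while of the 24 others with a window 2 held TCACGTGA and 7 held CACGTG. A match describes the letters in the window, not occupancy by a factor.

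With JHU083, transcripts of most of the membrane proteins and of 11 of the 20 hydrolases were higher by modest amounts. No TFE factor or V0 subunit among the 47 members passed the test, whereas Mitf and the V0 isoform Atp6v0d2, both outside the members, did. In edgeR's quasi-likelihood test, 21 of the 47 members were higher with JHU083 and 1 was lower at a Benjamini-Hochberg adjusted p of 0.05, and 25 did not pass. Across all 12500 tested loci 36.7% were called, 18.4% higher and 18.3% lower, so the members' share of higher calls (44.7%) was above this background and their share of lower calls below it. The median log2 fold change was 0.16 over the members and 0.01 over all tested loci, with 41 members positive and 6 negative. Changes of the 21 called higher ran from 0.21 to 0.81 on the log2 scale (median 0.44), or from 15.6% to 75.3%, and none reached a doubling. All 5 JHU083 samples lay above all 5 vehicle samples in 17 members, 16 of them called higher, where 11.2% of tested loci did so. Without scaling factors (library size only), 18 members stayed among the higher calls, and the split over all loci moved to 12.5% higher and 25.1% lower, since that choice shifts the median of all loci to -0.07.

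**Figure D1:**
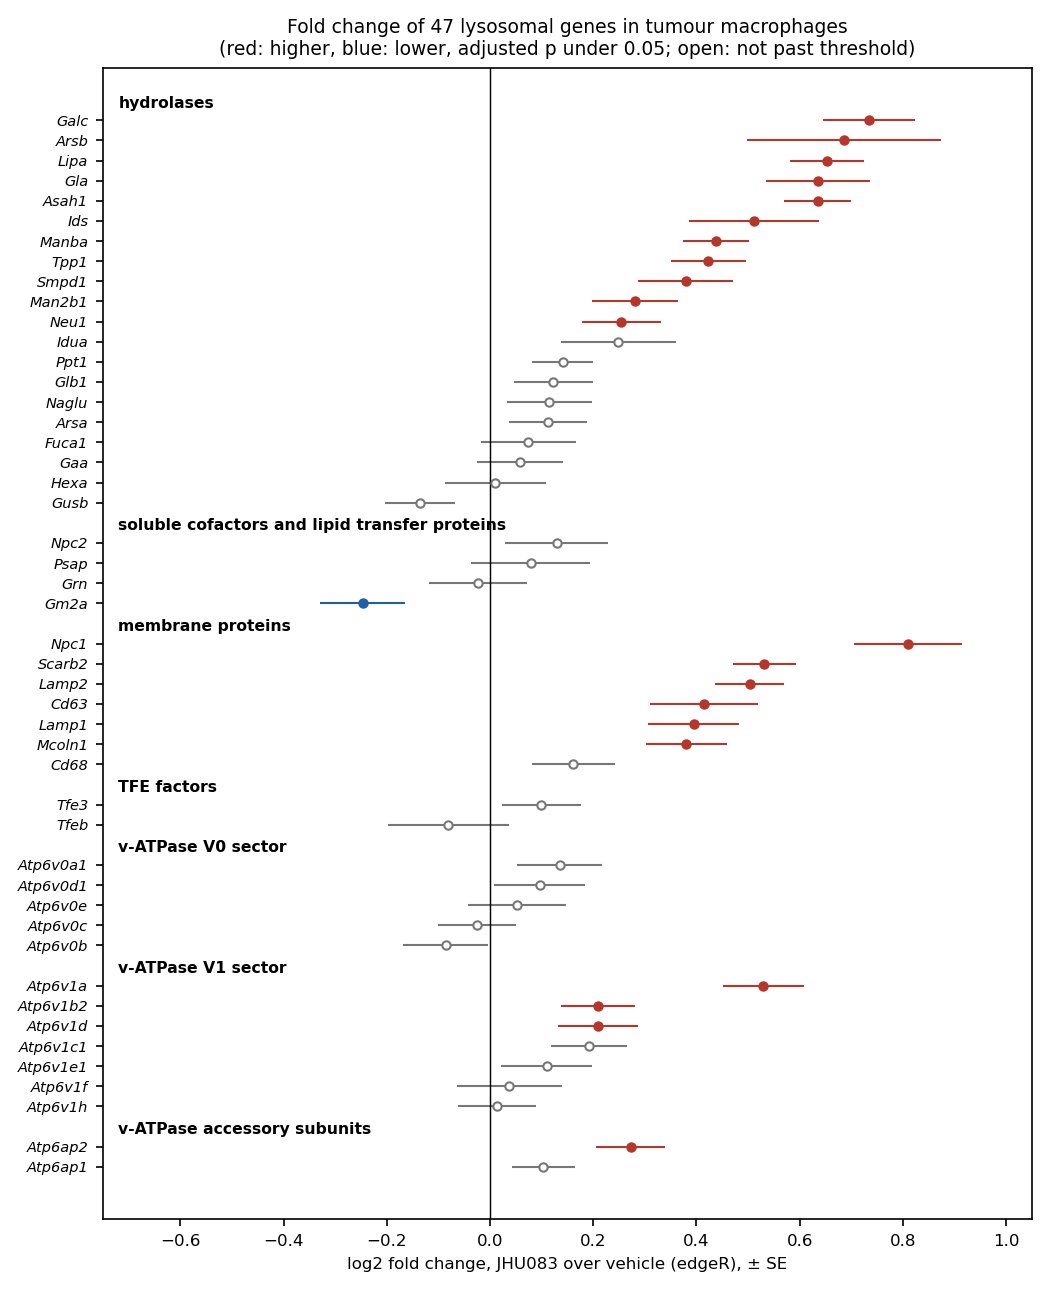
Log2 fold change of JHU083 over vehicle for the 47 members by class, with its standard error from edgeR (5 samples a group). Filled red points passed an adjusted p of 0.05 upward, the blue point (Gm2a) passed downward and open points did not pass. Membrane proteins span 0.16 to 0.81, and the 5 V0 subunits lie between -0.09 and 0.13.

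Calls were spread unevenly over the classes. Membrane proteins had 6 of 7 higher (median log2 fold change 0.41) and hydrolases 11 of 20 (median 0.27). The V1 sector had 3 of 7 (0.19), accessory subunits 1 of 2 (0.19), V0 0 of 5 (0.05), TFE factors 0 of 2 (0.01) and soluble cofactors 0 of 4, with 1 lower (0.03). Of the V0 and TFE genes, 0 also passed at an unadjusted p of 0.05 in edgeR, and 0 were called by DESeq2, limma-voom or limma on FPKM. Atp6v0d1 alone of them gained a call once GC content and length were corrected (0.22, edgeR adjusted p = 0.011). These counts rest on few genes per class and carry no test of one class against another. Placed by sample, the class medians (log2 CPM relative to the vehicle mean) ran from -0.08 to 0.09 in vehicle and from 0.32 to 0.51 in JHU083 samples for membrane proteins. Hydrolases ran from -0.08 to 0.13 against 0.17 to 0.35, so in both classes every JHU083 sample lay above every vehicle sample. For V0 the ranges were -0.11 to 0.13 and -0.13 to 0.08, and overlapped throughout.

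**Figure D2:**
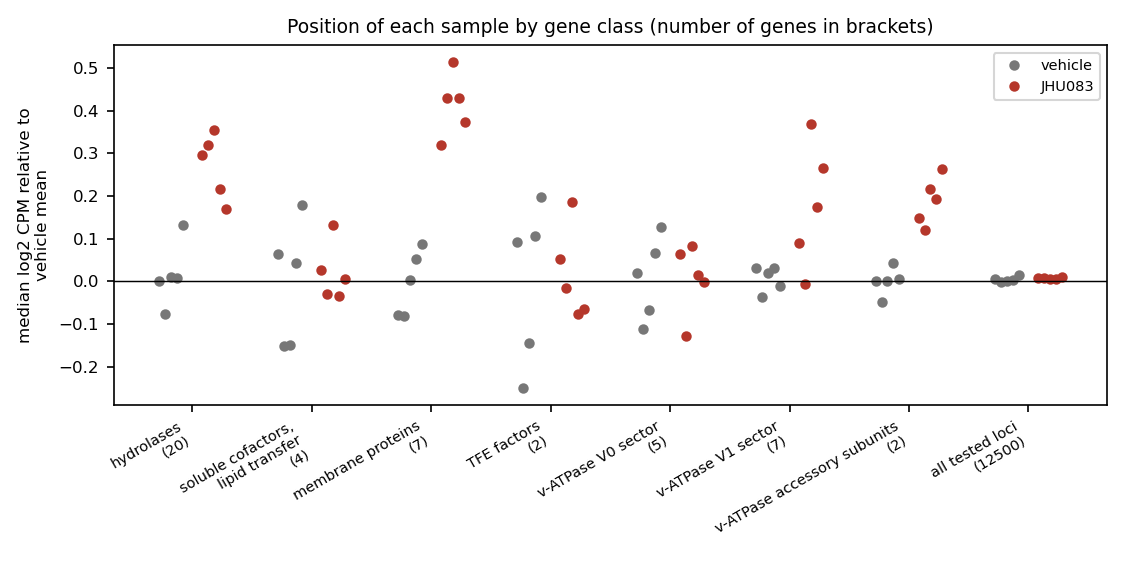
Median over the genes of each class of log2 CPM minus the gene's vehicle mean, 1 point per sample (grey vehicle, red JHU083, replicates 1 to 5 from left). Hydrolases, membrane proteins and accessory subunits separate by group, and V0, TFE factors and soluble cofactors do not.

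Npc1, the cholesterol exporter that is lost in Niemann-Pick type C disease (chr18:12189692-12236400, minus strand), read 140, 148, 176, 158 and 144 CPM in vehicle replicates 1 to 5 and 238, 326, 218, 277 and 286 CPM in the JHU083 replicates. The groups did not overlap, and at 0.81 ± 0.10 (log2, SE) Npc1 had the largest change of the 47 members (edgeR adjusted p = 6.11e-05). Exons of Rmc1 overlap it by 319 bases on the opposite strand, and whether counting used the strand is not given in the sources used here.

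Lamp2, the lysosomal membrane glycoprotein required for chaperone-mediated autophagy (chrX:38401357-38456454, minus strand), had vehicle values of 515, 546, 592, 556 and 523 CPM. With JHU083 they were 817, 735, 753, 789 and 776 CPM, all above the vehicle range. The change was 0.50 ± 0.07 (edgeR adjusted p = 8.08e-05). Its partner Lamp1 (chr8:13159161-13175338, plus strand), with which it makes up much of the protein coat inside the limiting membrane, measured 1436, 1235, 1265, 1390 and 1433 CPM with vehicle. JHU083 samples gave 1656, 1697, 1987, 1816 and 1727 CPM, again without overlap, for a rise of 0.39 ± 0.09 (edgeR adjusted p = 0.0033). Grtp1 overlaps its exons by 177 bases on the opposite strand.

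Scarb2 encodes LIMP-2, a receptor of the lysosomal membrane (chr5:92441314-92506833, minus strand). Its vehicle samples were tight at 198, 203, 216, 217 and 213 CPM, against 284, 316, 300, 307 and 308 CPM with JHU083. Groups were far apart relative to their spread (0.53 ± 0.06, edgeR adjusted p = 2.33e-05).

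Cd63, a tetraspanin of late endosomes and lysosomes (chr10:128900989-128912822, plus strand), gave 833, 749, 783, 869 and 906 CPM with vehicle. The JHU083 values were 1031, 956, 1406, 1082 and 1044 CPM, all above vehicle, with replicate 3 well above the rest of its group. Its change was 0.41 ± 0.10 (edgeR adjusted p = 0.00708) and 0.32 at the lowest when 1 sample was left out. Mcoln1, the calcium-releasing channel TRPML1 (chr8:3500457-3515232, plus strand), rose from 47.9, 48.3, 48.3, 56.0 and 55.8 CPM to 62.5, 69.8, 71.4, 63.5 and 66.2 CPM without overlap (0.38 ± 0.08, edgeR adjusted p = 0.00192). It is the membrane protein whose promoter holds the CLEAR core printed above.

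Cd68, the macrophage glycoprotein used as a histological marker, was the membrane protein that did not pass. It measured 416, 375, 422, 442 and 459 CPM with vehicle and 434, 458, 527, 429 and 516 CPM with JHU083, and the groups overlapped (0.16 ± 0.08, edgeR adjusted p = 0.13).

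Among hydrolases, Galc, Arsb, Lipa, Gla and Asah1 had the largest changes. Galc, the galactosylceramidase deficient in Krabbe disease (chr12:98202294-98259459, minus strand), read 55.4, 57.7, 68.6, 62.4 and 54.9 CPM with vehicle. With JHU083 the values were 94.9, 116, 89.7, 96.7 and 99.9 CPM, and the lowest of them exceeded every vehicle sample. It had the largest change of the class at 0.73 ± 0.09 (edgeR adjusted p = 3.69e-05), with a 325-base exon overlap by an antisense gene, Gm47439.

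Lipa, the acid lipase that hydrolyses cholesteryl esters and triglycerides (chr19:34492318-34527474, minus strand), gave 140, 125, 123, 121 and 137 CPM with vehicle. Values of 187, 200, 206, 199 and 224 CPM with JHU083 left a clear gap between groups. The rise was 0.65 ± 0.07 (edgeR adjusted p = 1.7e-05). Lipa releases cholesterol that NPC2 and NPC1 then pass out of the lysosome; of these 3, Lipa and Npc1 rose and Npc2 did not pass.

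Asah1, acid ceramidase (chr8:41340197-41374773, minus strand), was at 295, 295, 323, 301 and 291 CPM with vehicle and at 475, 491, 431, 450 and 492 CPM with JHU083. Neither group overlapped the other, and Asah1 had the smallest adjusted p of the members (0.63 ± 0.06, edgeR adjusted p = 1.07e-05). Gla, the alpha-galactosidase A lost in Fabry disease (chrX:134588149-134601125, minus strand), had 112, 135, 147, 143 and 127 CPM against 225, 169, 186, 221 and 232 CPM. Its groups were also apart (0.64 ± 0.10, edgeR adjusted p = 0.0003), and its promoter is the one with 2 CLEAR cores. Both were named after their values were seen.

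Arsb, arylsulfatase B, which removes sulfate from dermatan and chondroitin sulfate (chr13:93771630-93943016, plus strand), varied more. Vehicle samples gave 43.6, 38.9, 46.3, 33.5 and 45.2 CPM, and JHU083 samples 94.9, 86.5, 57.6, 51.5 and 43.4 CPM. JHU083 replicates 1 and 2 were high and replicate 5 lay inside the vehicle range (0.69 ± 0.19, edgeR adjusted p = 0.0113). A 1719-base exon overlap with Gm26527 on the opposite strand also limits this value.

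The other 6 hydrolases called higher rose by 0.25 to 0.51 on the log2 scale. They were Ids (iduronate sulfatase, 0.51), Manba (beta-mannosidase, 0.44), Tpp1 (tripeptidyl peptidase, 0.42), Smpd1 (acid sphingomyelinase, 0.38), Man2b1 (alpha-mannosidase, 0.28) and Neu1 (sialidase, 0.25), with edgeR adjusted p from 0.000175 for Manba to 0.0193 for Neu1. Manba, Tpp1 and Smpd1 had groups that did not overlap, whereas those of Ids, Man2b1 and Neu1 overlapped. The calls for Man2b1 and for Neu1 were each lost in 5 of 24 alternatives, 1 of which left out a single sample, vehicle replicate 2.

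Of the 9 hydrolases that did not pass, 8 had a positive estimate, up to 0.25 for Idua (alpha-iduronidase, edgeR adjusted p = 0.0947). Ppt1, the palmitoyl thioesterase, had groups that did not overlap (0.14, adjusted p = 0.0747). Hexa, the alpha subunit of beta-hexosaminidase (chr9:59539540-59565109, plus strand), was level, with 797, 661, 684, 768 and 841 CPM against 781, 690, 910, 713 and 682 CPM. Estimate ± 2 SE for Hexa spanned -0.19 to 0.21, with a 255-base exon overlap by Tmem202 on the opposite strand.

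Gusb, beta-glucuronidase (chr5:129989011-130003049, minus strand), was the hydrolase with a negative estimate. Its values were 470, 420, 439, 419 and 460 CPM with vehicle and 413, 378, 445, 390 and 384 CPM with JHU083, with overlap (-0.14 ± 0.07, edgeR adjusted p = 0.133). It was called lower with library size only (-0.22, edgeR adjusted p = 0.0112) and without JHU083 replicate 3 (-0.17, edgeR adjusted p = 0.0332). Glb1, beta-galactosidase, shares its locus with Tmppe, so fragments of both are in its value (138 ± 10.6 CPM with vehicle and 150 ± 11.4 with JHU083, SD, n = 5; log2 fold change 0.12). Naglu, Arsa, Fuca1 and Gaa lay between 0.06 and 0.12.

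**Figure D3:**
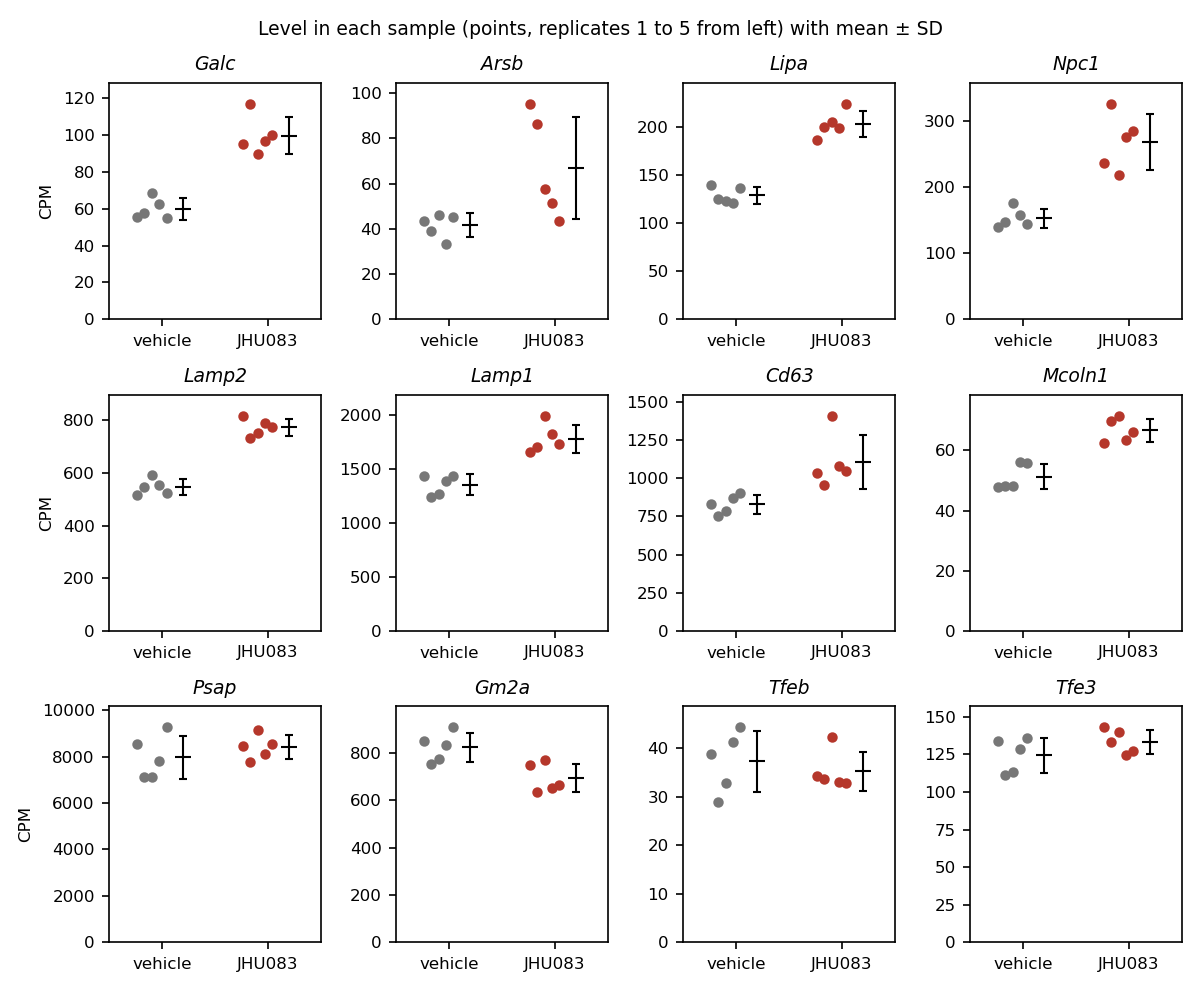
CPM in each of the 10 samples for 12 members, with the group mean and SD beside the points (grey vehicle, red JHU083, replicates 1 to 5 from left, axes from 0). Galc, Lipa, Npc1, Lamp2, Lamp1, Cd63 and Mcoln1 separate by group, Arsb and Gm2a overlap in part, and Psap, Tfeb and Tfe3 overlap.

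None of the soluble helpers of these enzymes was called higher. Psap, the precursor of the saposins that present sphingolipids to hydrolases (chr10:60277627-60302597, plus strand), read 8535, 7099, 7116, 7793 and 9250 CPM with vehicle. Its JHU083 values of 8457, 7755, 9150, 8124 and 8548 CPM lay inside the vehicle range (0.08 ± 0.12, edgeR adjusted p = 0.619). Per length it was the most abundant member, at 3013 ± 347 in vehicle samples (SD, n = 5) in FPKM, fragments scaled to transcript length and library size.

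Gm2a, the activator that lifts GM2 ganglioside out of the membrane for hexosaminidase A (chr11:55098115-55113029, plus strand), was the 1 member called lower. Vehicle samples had 850, 752, 773, 831 and 906 CPM and JHU083 samples 750, 636, 767, 651 and 663 CPM. JHU083 replicate 3 lay inside the vehicle range, and the change was -0.25 ± 0.08 (edgeR adjusted p = 0.03). This call was lost in 12 of 24 alternative analyses, 6 of which left out a single sample. Grn, the progranulin precursor, averaged 1731 ± 197 CPM with vehicle and 1704 ± 78.0 with JHU083 (SD, n = 5; log2 fold change -0.02, adjusted p = 0.872). Npc2, the soluble sterol carrier, averaged 1202 ± 113 and 1314 ± 151 CPM (0.13, adjusted p = 0.325).

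The v-ATPase calls fell in V1 and in an accessory subunit, 4 of 14 in all (28.6%), where 18.4% of all tested loci were called higher. Atp6v1a, the catalytic A subunit of V1 that binds ATP (chr16:44085402-44139705, minus strand), had the largest change of the pump members. It was at 244, 273, 311, 281 and 254 CPM with vehicle and at 379, 398, 362, 391 and 436 CPM with JHU083, with no overlap (0.53 ± 0.08, edgeR adjusted p = 0.000184). Its promoter holds the CLEAR core printed above.

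Atp6v1b2, the B subunit that alternates with A in the V1 head (chr8:69088646-69113711, plus strand), rose by less. Its values were 343, 317, 326, 343 and 351 CPM against 357, 352, 435, 395 and 404 CPM, close but apart (0.21 ± 0.07, edgeR adjusted p = 0.0336). Atp6v1d, of the central stalk (chr12:78840725-78861638, minus strand), gave 67.9, 66.4, 73.4, 63.7 and 65.9 CPM against 81.8, 67.1, 84.0, 76.1 and 81.1 CPM. Here JHU083 replicate 2 lay inside the vehicle range (0.21 ± 0.08, edgeR adjusted p = 0.0483). Both calls were marginal: that of Atp6v1b2 was lost in 11 and that of Atp6v1d in 19 of 24 alternatives.

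The remaining V1 members did not pass. Atp6v1c1, which links stator and head, had 0.19 (edgeR adjusted p = 0.0562), and Atp6v1e1, Atp6v1f and Atp6v1h had 0.11, 0.04 and 0.01. Atp6v1c1 was called higher by DESeq2 (0.19, adjusted p = 0.0387) and without JHU083 replicate 2 (0.23, edgeR adjusted p = 0.0308). Atp6ap2, the accessory subunit also known as the prorenin receptor (chrX:12587801-12617049, plus strand), had 221, 221, 241, 234 and 220 CPM with vehicle. Its JHU083 values of 254, 262, 274, 283 and 301 CPM were all higher (0.27 ± 0.07, edgeR adjusted p = 0.00578), but the call was lost after a correction for GC content and length (0.14, adjusted p = 0.054). The other accessory subunit, Atp6ap1, had 0.10 (adjusted p = 0.198). On log2(FPKM + 1) Atp6ap1 was called higher in limma (0.22, adjusted p = 0.0109).

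No V0 member passed. Atp6v0d1, the subunit that couples V0 to the V1 stalk (chr8:105524465-105566047, minus strand), gave 224, 203, 212, 225 and 248 CPM with vehicle and 237, 211, 288, 224 and 228 CPM with JHU083. Apart from the high replicate 3 the groups lay together (0.10 ± 0.09, edgeR adjusted p = 0.412). With GC content and length corrected it was called higher, as given above. Atp6v0c, which forms the proton-carrying ring, shares its locus with Gm43796 and Tbc1d24 and gave 760 ± 57.6 CPM with vehicle and 747 ± 39.1 with JHU083 (SD, n = 5; log2 fold change -0.03).

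For the 5 V0 members the estimate ± 2 SE reached at most 0.30 upward (Atp6v0a1) and -0.25 downward (Atp6v0b). An increase of the size seen for Atp6v1a (0.53) was thus outside these intervals. They do not show that V0 transcripts were the same in both groups.

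Per length, the pump subunits of V0 and V1 sat at levels that differ widely. In vehicle samples Atp6v0c was at 768 ± 60.0, Atp6v0b at 331 ± 28.2, Atp6v1f at 264 ± 24.5, Atp6v1b2 at 120 ± 4.51 and Atp6v1a at 65.5 ± 8.34 FPKM (SD, n = 5). The ring subunit c is present in several copies per pump, and A and B in equal number.

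**Figure D4:**
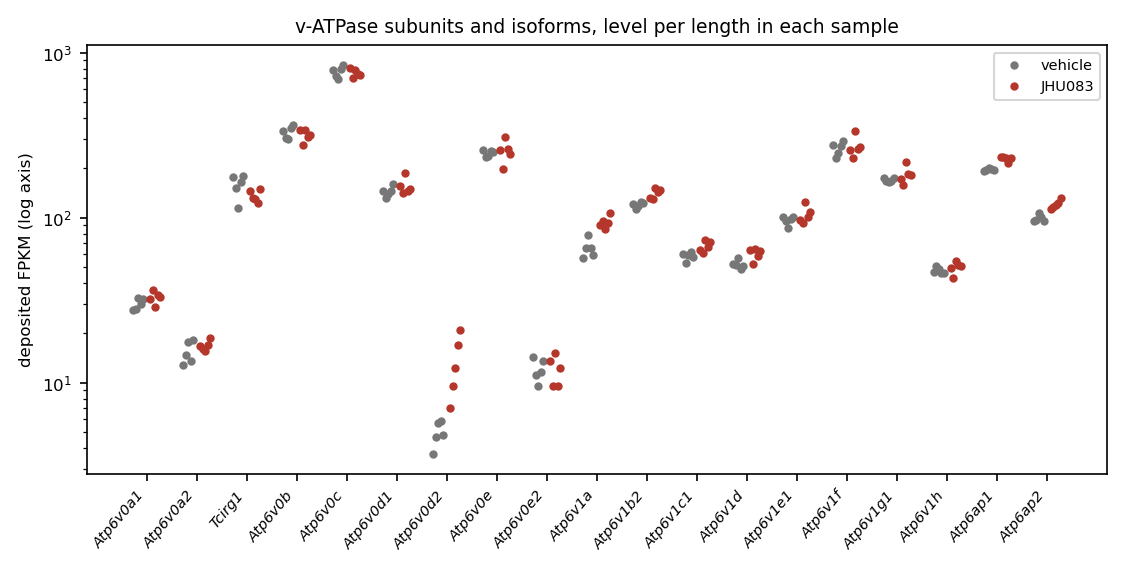
Deposited FPKM (log axis) of v-ATPase subunits and isoforms in each sample (grey vehicle, red JHU083, replicates 1 to 5 from left). Atp6v0d2, the lowest plotted in vehicle samples, separates by group and rises from a vehicle maximum of 5.91 to a JHU083 maximum of 21.01 FPKM. Atp6v1a, Atp6v1b2, Atp6ap1 and Atp6ap2 separate too.

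Isoforms outside the 47 members completed the pump. Of the d isoforms, Atp6v0d2, known from osteoclasts and fused macrophages (chr4:19876841-19922605, minus strand), gave 9.37, 11.8, 14.3, 15.0 and 12.2 CPM with vehicle. With JHU083 it gave 17.8, 23.9, 31.2, 43.0 and 53.0 CPM, apart from vehicle but spread widely. The change was 1.43 ± 0.25 (edgeR adjusted p = 0.000585), larger than that of any member. Its share of d-isoform FPKM was 2.47% to 3.92% (median 3.42%) in vehicle and 4.36% to 12.4% (median 6.36%) in JHU083 samples, so Atp6v0d1 still supplied most of the d transcripts.

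Of the a isoforms, Tcirg1 (a3) held 69.3% to 81.2% of FPKM with vehicle and 70.6% to 74.7% with JHU083, and its change was -0.12 (edgeR adjusted p = 0.301). Atp6v0a2 had 0.06 (adjusted p = 0.518), and Atp6v1g1, the G subunit of V1, had 0.10 (adjusted p = 0.354). In the list of other v-ATPase genes 4 of 11 tested (36.4%) were higher and none lower (median 0.06). Of all tested loci 18.4% were higher and 18.3% lower. The 3 besides Atp6v0d2 were Dmxl1 (0.82, adjusted p = 0.00875), Dmxl2 (0.69, 0.00109) and Wdr7 (0.49, 0.00284), genes of the RAVE-like complex that assembles the pump, named after their values were seen. The groups overlapped for Dmxl1 and Dmxl2, and Rogdi, also of that complex, had 0.02 (adjusted p = 0.906).

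The TFE factors themselves did not move detectably. Tfeb (chr17:47737030-47792419, plus strand) gave 38.9, 29.0, 33.0, 41.3 and 44.3 CPM with vehicle and 34.4, 33.7, 42.4, 33.0 and 32.9 CPM with JHU083. Every JHU083 value lay inside the vehicle range (-0.08 ± 0.12, edgeR adjusted p = 0.618, estimate ± 2 SE from -0.31 to 0.15). Tfe3 (chrX:7762560-7775202, plus strand) gave 134, 111, 113, 128 and 136 CPM against 143, 133, 140, 125 and 127 CPM, with overlap (0.10 ± 0.08, adjusted p = 0.331, from -0.06 to 0.25).

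Their relative Mitf, not a member (chr6:97807052-98021349, plus strand), did rise. Mitf had 20.4, 21.7, 23.9, 24.1 and 20.9 CPM with vehicle and 32.8, 36.4, 32.4, 35.0 and 46.0 CPM with JHU083, without overlap (0.72 ± 0.11, edgeR adjusted p = 0.000167). Tfec, the macrophage-restricted relative, had 0.25 (adjusted p = 0.071). Without JHU083 replicate 1 Tfec was called higher (0.33, edgeR adjusted p = 0.00802), and over 24 alternatives its estimate ran from 0.04 to 0.42.

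In the list of TFE relatives and mTORC1 components 9 of 21 tested genes were higher and 1 lower (median 0.16). Of all tested loci 18.4% were higher and 18.3% lower. Rragd, a Rag GTPase of the complex that recruits mTORC1 and TFEB to the lysosome, rose most. It gave 2.78, 3.66, 3.85, 2.95 and 1.72 CPM with vehicle and 6.48, 9.19, 6.64, 6.35 and 10.5 CPM with JHU083, at low counts but without overlap (1.39 ± 0.22, edgeR adjusted p = 0.00031). On log2(FPKM + 1) its change was 0.50 and did not pass in limma (adjusted p = 0.0743). Rragc (0.50, adjusted p = 4.44e-05) and the folliculin gene Flcn (0.48, adjusted p = 0.00163), which acts on RagC and RagD, were also higher and were named after their values were seen. Lamtor2, a scaffold of the Rag GTPases, was lower (-0.36 ± 0.12, adjusted p = 0.0304), a call lost in 11 of 24 alternatives, with -0.16 after correction for GC content and length.

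Lysosomal genes outside the 47 were read from lists written for the pathway. Over all 7 lists 59 of 127 tested genes were higher and 6 lower (median log2 fold change 0.19), a share of 46.5% higher. Of all tested loci 18.4% were higher and 18.3% lower. Other hydrolases had 13 of 22 higher and 1 lower (median 0.26), close to the median of the 20 member hydrolases. Sgsh, heparan N-sulfatase, rose most there, from 51.7, 55.3, 56.2, 53.2 and 58.1 CPM to 94.6, 109, 98.8, 97.3 and 97.6 CPM (0.86 ± 0.07, edgeR adjusted p = 2.08e-06). The groups were far apart, with an 839-base exon overlap by Card14 on the opposite strand. Naaa, the acid amidase of N-acylethanolamines, was lower, from 305, 282, 265, 267 and 297 CPM to 244, 203, 199, 181 and 182 CPM, also without overlap (-0.49 ± 0.09, adjusted p = 0.000671).

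Other membrane proteins and transporters had 12 of 23 higher and 1 lower (median 0.20), where 18.4% of all tested loci were higher and 18.3% lower. Slc17a5, the sialic acid exporter sialin, rose by 0.84 ± 0.10 (edgeR adjusted p = 2.26e-05), from 24.1 ± 2.43 to 43.0 ± 4.28 CPM (SD, n = 5). Slc15a3, a transporter of histidine and dipeptides, was lower (-0.24, adjusted p = 0.0472), with a 1529-base exon overlap by Tmem132a. This call was lost in 16 of 24 alternatives, and the estimate was -0.07 with GC content and length corrected. Genes for autophagy had 8 of 15 higher and none lower (median 0.32), led by Gabarapl1 (0.54, adjusted p = 0.000362, with a 377-base exon overlap by 1700101I11Rik on the opposite strand), and those for fusion and positioning 7 of 17 higher and none lower (0.19), led by Plekhm2 (0.52, adjusted p = 0.000158).

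For delivery of hydrolases from the Golgi, 6 of 18 tested genes were higher and 3 lower (median 0.08). Of all tested loci 18.4% were higher and 18.3% lower, the latter near the share of lower calls in this list. Igf2r, the large mannose 6-phosphate receptor, was at 26.4, 46.4, 46.1, 27.9 and 15.1 CPM with vehicle and at 13.0, 12.2, 4.55, 9.48 and 9.82 CPM with JHU083. All JHU083 samples were below all vehicle samples, by 1.72 on the log2 scale (-1.72 ± 0.30, edgeR adjusted p = 0.000591). Sort1, sortilin, an alternative carrier, was at 4.48, 4.80, 6.19, 4.95 and 4.46 CPM and at 9.55, 8.23, 9.54, 10.2 and 9.23 CPM. It rose by 0.91 ± 0.13 (adjusted p = 0.000141), at a locus that also lists Gm12525 and has a 338-base exon overlap by the antisense gene Gm12523. M6pr, the small mannose 6-phosphate receptor, had 0.12 (adjusted p = 0.201) and was named after its value was seen. Tumour epithelial, fibroblast and endothelial marker sums fell together with Igf2r, and the part of these cells in its fall was not tested.

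**Figure D5:**
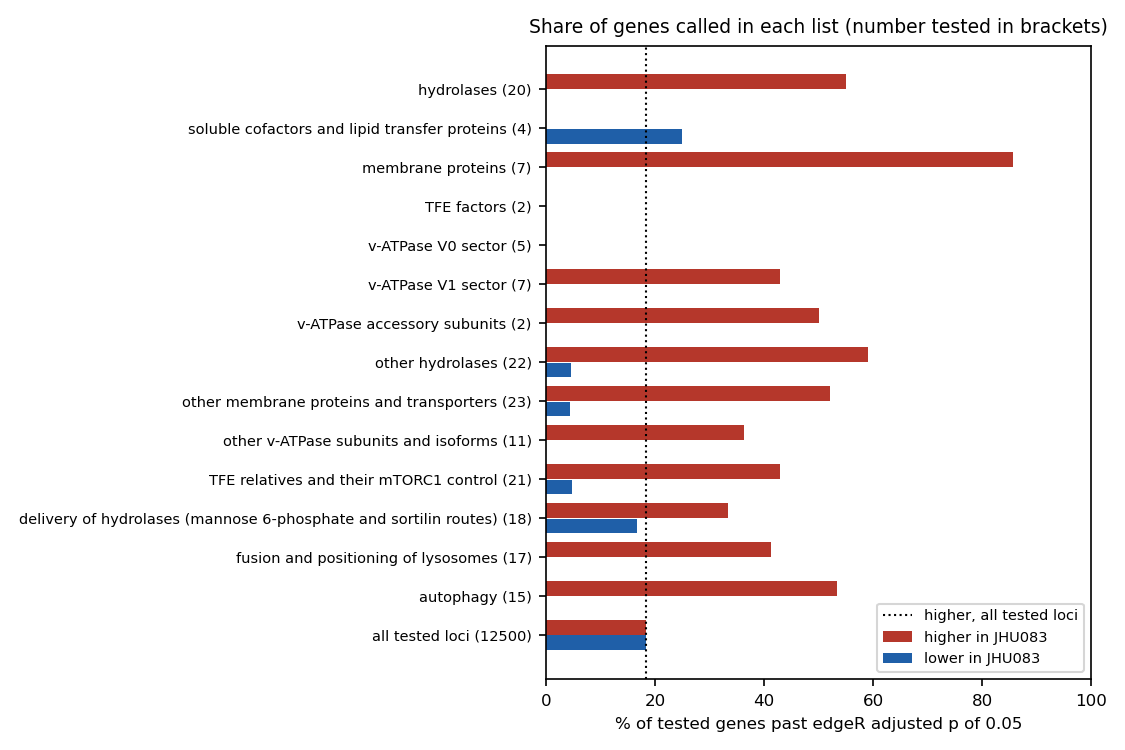
Percent of tested genes called higher (red) or lower (blue) in each class of members, each other list and all tested loci, with the number tested in brackets. The dotted line is the 18.4% of all tested loci called higher. Hydrolases reach 55.0% and membrane proteins 85.7%, against 0 for V0 and the TFE factors.

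Members are small in number but large in output. All 47 together took 2.21% to 2.55% of fragments in vehicle samples and 2.42% to 2.65% in JHU083 samples, with overlap. Without Psap, the most abundant member, the ranges were 1.48% to 1.63% and 1.64% to 1.78%, and the groups did not overlap. Hydrolases rose from 0.442% to 0.473% with vehicle to 0.486% to 0.527% with JHU083, and membrane proteins from 0.356% to 0.381% to 0.446% to 0.496%. The V0 share was 0.144% to 0.165% and 0.140% to 0.157%. For comparison, mitochondrially encoded transcripts held 1.53% to 2.09% of fragments with vehicle and 2.14% to 2.44% with JHU083.

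By level, Psap was followed by Cd63 (1117 ± 80.9), Grn (804 ± 95.9), Atp6v0c (768 ± 60.0) and Lamp1 (616 ± 40.8 FPKM, vehicle, SD, n = 5). Grn and Atp6v0c did not differ beyond their spread, nor did Hexa (417 ± 40.9) and Cd68 (416 ± 31.0). At the low end stood Smpd1 (7.98 ± 0.673), Idua (6.42 ± 1.12) and Ids (6.27 ± 0.814), of which Idua and Ids were alike within their spread.

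Members called higher had a lower GC content, at a median of 46.3% of the longest transcript against 52.9% for the 25 that did not pass. Across the 47 members GC content and log2 fold change had Pearson's r of -0.48 (Spearman -0.50), and across 12190 tested loci with a value r was -0.21 (-0.26), given as a description, since genes share these libraries. When each sample was corrected for GC content and length, 27 members were higher where 22.2% of all loci were. Hydrolases then had 16 of 20, membrane proteins 7 of 7, V1 2 of 7 and V0 1 of 5 (Atp6v0d1, 0.22), while Tfeb and Tfe3 stayed without a call. Glb1, Gaa, Naglu, Arsa, Idua, Cd68 and Atp6ap1 gained a call, while Atp6v1d (0.11, edgeR adjusted p = 0.296) and Atp6ap2 lost theirs. Gm2a kept its size at -0.24 but just missed the threshold (edgeR adjusted p = 0.0576). The direction of each of the 21 higher members held in all 24 alternatives, and 8 of them (Gla, Asah1, Galc, Lipa, Npc1, Lamp2, Scarb2 and Atp6v1a) were called in every one.

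Samples were not alike in these genes. JHU083 replicate 3 was the highest of its group in 29 of the 47 members, in 21 of the 26 not called higher but 8 of the 21 called. Vehicle replicate 5 was the highest of its group in 25 members and vehicle replicate 2 the lowest in 25. No fragment of the ribosomal RNA locus Rn18s-rs5 was counted in 5 samples (vehicle replicates 2, 4 and 5, JHU083 replicates 1 and 3). Within the samples at 0, all 21 higher members kept a positive estimate (median 0.43), and likewise within the others (median 0.47). At these smaller numbers 9 members were called higher in the first set, where 4.18% of loci were, and 12 in the second, where 10.3% were, with 8 in both.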

How the data were processed

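RNA was measured by paired-end sequencing of poly(A) libraries from 10 sorted macrophage samples (5 vehicle, 5 JHU083), grouped by their labels. The authors deposited 1 table per sample with an estimated count and an FPKM value per locus. The submitters' processing notes name bcl2fastq 2.17.1.14, FastQC 0.11.2, TopHat2 2.1.1 and GRCm38; the counting program, annotation and strand setting are not given in the sources used here. The deposited counts were scaled: values in each sample were multiples of a step of 0.888 to 1.17, and division by it gave whole fragments for 99.8% to 99.9% of values above 0 (within 0.05 of a whole number). These fragments were tested. The FPKM values the authors deposited served to compare levels between genes, and in limma as log2(FPKM + 1). A locus with no symbol (0.0013% to 0.0021% of fragments) was left out. The 1060 loci with several symbols held 12.7% of fragments.

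edgeR 4.0.16 (R 4.3.3) was run on all 10 samples with TMM scaling, filterByExpr and the quasi-likelihood F-test, with Benjamini-Hochberg adjustment over 12500 loci at 0.05; it was tested on simulated data. CPM values use TMM-scaled library sizes. Alternatives used DESeq2 1.42.0, limma 3.58.1 and mgcv 1.9.3 (correction for GC content and length). A count of 3 corresponds to 0.191 to 0.269 CPM before TMM scaling. GENCODE M21 (GRCm38) gave positions, GC content and length, and RefSeq (GRCm38.p6) the promoters. Members and lists were chosen with earlier results of these data known. Named members were the 3 largest increases and 2 largest decreases called in each class plus a panel of 17, and outside the members a panel of 8, of which 2 are not reported here, and the largest change called each way in each list. Galns, Pgcp and Map1lc3b were not analysed here, and 7 other listed genes were too low to test.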

Additional observations from a re-analysis of the deposited data

Results flagged for a closer look

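In 126 groups of 5 samples (members and named genes outside them, each group separately), 4 had a sample whose gap to its nearest neighbour exceeded 0.71 of the group's range, Dixon's 95% critical value. Chance flags about 1 in 20 groups, or 6.3 here. JHU083 replicate 3 was that sample in 3 of the 4. Naglu stood at 203 CPM there against 159 to 169 in the other 4 samples, and Cd63 at 1406 against 956 to 1082. Tfeb was at 42.4 CPM against 32.9 to 34.4. The remaining sample was vehicle replicate 3 for Sort1, at 6.19 CPM against 4.46 to 4.95. Without JHU083 replicate 3, 20 members were called higher and 2 lower, where 22.9% and 23.1% of all tested loci were.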

How the results depend on the processing

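Over 24 alternatives, counts of members called higher ran from 17 to 27 outside the smaller within-set tests, and the cause of each move was not tested. With library size only, 2 members were lower, where 25.1% of all tested loci were. In that fit median log2 changes were 0.19 for hydrolases, -0.051 for soluble cofactors, 0.33 for membrane proteins, -0.03 for V0 and 0.11 for accessory subunits. Under it, estimates turned negative for Gaa (-0.021), Hexa (-0.070), Fuca1 (-0.0077), Psap (-0.00013), Atp6v0e (-0.031), Atp6v1f (-0.044), Atp6v1h (-0.070) and Atp6v0a2 (-0.025). On log2(FPKM + 1), medians were 0.52 for membrane proteins and 0.25 for accessory subunits. With no filter on low counts, where 25544 loci were tested, 18 members were higher and 0 lower, with 8.68% and 9.27% of all loci. Within samples with Rn18s-rs5 at 0, 9 members were higher and 0 lower, with 532 and 586 of all loci, and Tfeb (0.011) and Atp6v0c (0.018) were positive. Within the others, 12 members were higher and 0 lower, with 1329 and 1522 of all loci, and Hexa (-0.094), Fuca1 (-0.025), Grn (0.025), Atp6v0e (-0.057), Atp6v1f (-0.045) and Atp6v1h (-0.043) changed sign. These tests had fewer samples. In the first Igf2r (-1.75) and Naaa (-0.35) lost their calls, and in the second Tfec (0.42) gained a call.

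With GC content and length corrected, 0 members were lower (Gm2a at -0.24), where 17.1% of all tested loci were. Medians were 0.36 for hydrolases, 0.18 for soluble cofactors and 0.13 for TFE factors. Estimates then were 0.15 for Grn, 0.12 for Tfeb, 0.11 for Atp6v0b, 0.07 for Atp6v0c, -0.20 for Atp6v1h and 0.09 for Tcirg1. Same-numbered samples did not pair: their deviations correlated from -0.57 to 0.09, and 0 of 5 correlated best with their own number. With the replicate number as a block, 17 members were higher and 0 lower, with 12.9% and 14.1% of all loci. With the block and the GC and length correction together, 26 were higher and 0 lower, with 18.6% and 14.9% of all loci, and with medians of 0.36, 0.18 and 0.14 for those 3 classes. That fit gave 0.16 for Grn, 0.13 for Tfeb, 0.11 for Atp6v0b, 0.071 for Atp6v0c, -0.21 for Atp6v1h and 0.10 for Tcirg1.

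Leaving out 1 sample gave 17 to 22 members higher and 0 to 2 lower, and 1821 to 2899 loci higher and 1900 to 2930 lower, the highest 2 of these without JHU083 replicate 3. Estimates that changed sign ranged from -0.063 to 0.052 for Hexa, from -0.055 to 0.092 for Atp6v1f, from -0.068 to 0.030 for Grn, from -0.061 to 0.0050 for Atp6v0c, from -0.010 to 0.117 for Fuca1, from -0.027 to 0.126 for Atp6v0e and from -0.021 to 0.070 for Atp6v1h. Depth limits Rragd and Sort1, with group means of 2.99 to 9.34 CPM.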
